A study of Mus musculus with 25 samples.

Results

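The data describe 6 genes, Apoa1, Apoa2, Apoa4, Apoa5, Apob and Apoc3, which encode apolipoproteins made mainly by liver and small intestine, in RNA from mouse sperm. They are 6 of the 47575 genes in the deposited table of normalised counts and were found by their symbols. The set was chosen on its measured values, since Apoa1 and Apoa4 had no read in any control library, so all levels set against the control diet are given as a description without a test. Males of the C57/BL6J strain, 8 weeks old at the start, were fed for at least 8 weeks, sperm were released from the sliced caudal epididymides and swam up into fresh medium, and total RNA depleted of ribosomal RNA was sequenced. The 5 groups were MD-WD (the Western diet with added methyl donors), WD (the Western diet of 19% casein, 34% sugar, 20% milk fat and 0.15% cholesterol), MD-LPD (the low-protein diet with added methyl donors), LPD (9% casein, 24% sugar, without milk fat or cholesterol) and CD (the control diet of 18% casein and 21% sugar, without milk fat or cholesterol). Per kg of diet, the methyl donor supplement added 5 g choline chloride, 15 g betaine, 7.5 g methionine, 15 mg folic acid and 1.5 mg vitamin B12. All males were of this inbred strain, each group held 5 libraries, and each library came from a single male, so group differences are differences between 5 and 5 males.

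Apolipoproteins wrap triglyceride and cholesterol into particles that can travel in blood. Apob is the large scaffold of very low density lipoproteins from the liver and, in a shorter edited form, of chylomicrons from the intestine. Apoa1 and Apoa2 are the main proteins of high density lipoproteins, Apoa4 is secreted by the intestine with chylomicrons and in the mouse also by the liver, and Apoa5 and Apoc3, both made mostly by the liver, act in opposite directions on lipoprotein lipase: Apoa5 promotes and Apoc3 restrains the clearance of triglyceride. Transcription of these genes depends on nuclear receptors and other liver-enriched factors, of which HNF4A is the best described.

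Libraries held 32455480 to 54108158 reads (median 38676778), and 26859 to 36615 genes had a read. Sperm markers summed to 88903 to 1471074 normalised counts per library, epididymal epithelial markers to 109697 to 587417 and leukocyte markers to 17296 to 97274, so markers of other cells had reads in every library. The 6 apolipoprotein genes together had 0 to 2245 normalised counts. In RNA from such a preparation, fewer cells of a type and less RNA per cell cannot be told apart. For 3 males (CD male 15, LPD male 15 and MD-LPD male 15) a separate treatment entry named another diet than the sample title, and the title was followed. Under either entry no library of the control diet had a read of Apoa1, Apoa4 or Apoc3.

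Of the 6 genes, 4 lie within 43.34 kb of chromosome 9 in the GRCm39 build. Apoa1 spans chr9:46139878-46142212 on the plus strand, Apoc3 chr9:46142527-46146934 on the minus strand, Apoa4 chr9:46151994-46154757 on the plus strand and Apoa5 chr9:46179931-46183217 on the plus strand. Apoa2 lies at chr1:171049125-171053948 and Apob at chr12:8027648-8066835, both on the plus strand. All are protein-coding. Apoa2 overlaps Tomm40l (mean 149.9 normalised counts, reads in all 25 libraries) and Gm71631 on the opposite strand, and the library kit kept strand while the strand setting of the counting is not given in the sources used here. Apoa4, Apoa5 and Apob also overlap annotated antisense RNAs (Gm47528 and Gm10680, Gm47544, and Gm33037), of which Gm47528 averaged 0.625 and Gm33037 averaged 15.6 normalised counts over the 25 libraries. Without the strand setting, reads of a gene and of its antisense partner cannot be told apart.

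The 250 bases before the annotated start are shown for 4 genes because their transcripts appeared in the same libraries, and because published HNF4A binding sequences share the letters CAAAGTNCA. They are RefSeq sequences of the GRCm38.p6 build, 5′ to 3′ on the gene's strand, and capitals mark CAAAG on either strand (CTTTG where it reads on the other strand), any full CAAAGTNCA that contains it, and TATAAA. The windows are chr9:46228380-46228629 for Apoa1, chr9:46240594-46240843 for Apoa4, chr9:46268358-46268607 for Apoa5 (the first of its 2 annotated starts) and chr12:7977427-7977676 for Apob.
Apoa1: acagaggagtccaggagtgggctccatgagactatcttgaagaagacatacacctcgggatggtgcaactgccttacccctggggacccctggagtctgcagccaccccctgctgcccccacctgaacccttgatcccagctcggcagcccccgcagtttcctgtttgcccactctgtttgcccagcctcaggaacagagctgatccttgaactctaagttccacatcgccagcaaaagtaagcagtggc
Apoa4: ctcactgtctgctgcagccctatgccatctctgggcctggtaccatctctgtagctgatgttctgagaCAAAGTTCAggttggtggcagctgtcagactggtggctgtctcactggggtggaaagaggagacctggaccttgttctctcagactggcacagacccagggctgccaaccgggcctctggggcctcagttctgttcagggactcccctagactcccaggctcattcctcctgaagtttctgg
Apoa5: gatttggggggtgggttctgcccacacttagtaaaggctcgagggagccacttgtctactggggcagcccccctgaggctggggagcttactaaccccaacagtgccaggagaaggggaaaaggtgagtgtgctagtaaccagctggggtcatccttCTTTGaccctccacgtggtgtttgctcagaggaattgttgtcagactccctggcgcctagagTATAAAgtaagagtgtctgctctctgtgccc
Apob: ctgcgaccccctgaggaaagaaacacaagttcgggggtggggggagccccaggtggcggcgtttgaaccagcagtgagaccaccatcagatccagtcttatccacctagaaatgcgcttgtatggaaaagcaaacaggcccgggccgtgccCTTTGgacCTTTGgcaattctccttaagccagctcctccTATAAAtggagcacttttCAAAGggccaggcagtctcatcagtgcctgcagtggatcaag
The Apoa4 window held CAAAGTNCA from base -182 to base -174, counted back from the start. The Apoa5 window held 1 CAAAG and a TATAAA from base -31 to base -26, and the Apob window held 3 CAAAG and a TATAAA from base -60 to base -55. In the Apoa1 window none of the 3 motifs was found. Of all 32851 promoter windows of this length, 48.6% held CAAAG, 12.4% TATAAA and 1.19% CAAAGTNCA on either strand, where every CAAAGTNCA also counts as a CAAAG. Apoa2 had 2 windows, with a single TATAAA between them, and 5 of the 6 genes were in the sequence table. Apoc3 was not matched.

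Apob was the most widely detected of the 6, with reads in 24 of 25 libraries. Its normalised count was 95.5, 64.5, 30.3, 47.8 and 24.0 in MD-WD males 9, 10, 12, 14 and 16, and 35.3, 1485, 73.9, 50.6 and 61.7 in WD males 10 to 14. It was 1230.2, 86.7, 530.4, 107 and 36.9 in MD-LPD males 9, 10, 11, 14 and 15, and 143, 83.4, 80.2, 46.0 and 148 in LPD males 10, 11, 12, 13 and 15. In CD males 10, 11, 12, 14 and 15 it was 0, 97.4, 75.0, 105 and 58.0. WD male 11, MD-LPD male 9 and MD-LPD male 11 stood far above the other 22 libraries, which reached at most 148, and all groups overlapped. Apob averaged 52.4 ± 28.8 in MD-WD, 341 ± 640 in WD, 398 ± 506 in MD-LPD, 100.1 ± 43.9 in LPD and 67.1 ± 41.8 in CD sperm (SD, n = 5 each). In order of level the groups ran MD-LPD, WD, LPD, CD and MD-WD, and each neighbouring pair differed by less than the larger of its SDs. Without those 3 libraries the means were 52.4 in MD-WD, 55.4 in WD (n = 4), 76.8 in MD-LPD (n = 3), 100.1 in LPD and 67.1 in CD sperm.

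Apoa1, the main structural protein of high density lipoprotein, had 7.87, 6.07, 14.4, 5.04 and 8.00 normalised counts in the MD-WD males in the same order, so that MD-WD was the only diet with a read in every library. In WD males 10 to 14 it had 11.8, 258, 0, 0 and 0, in MD-LPD males 68.5, 17.6, 59.9, 0 and 0, and in LPD males 13.2, 0, 0, 0 and 15.5. All 5 CD libraries had 0. The MD-WD values were low and close together, and the higher means of the WD and MD-LPD groups rested on 1 and 2 libraries. Apoa1 averaged 8.28 ± 3.66 in MD-WD, 54.0 ± 114 in WD, 29.2 ± 32.9 in MD-LPD and 5.74 ± 7.90 in LPD sperm (SD, n = 5 each), and in the order WD, MD-LPD, MD-WD and LPD each neighbouring pair differed by less than the larger SD. The 5 CD libraries together held 180332962 reads. If the quantified counts are taken as tallied reads, a count of 0 allows up to 3 reads over the group, counting error only. The counts were quantified by StringTie, and whether a listed 0 means that no read was sequenced was not checked. Against that floor, taken over the whole CD group, the Apoa1 mean was 14.4-fold higher in MD-WD and 93.9-fold higher in WD sperm. It was 50.7-fold higher in MD-LPD and 9.97-fold higher in LPD sperm. These bounds allow for counting error in CD only and take the other mean as measured, so they are no true minimum. They rest on the CD zeros by which Apoa1 and Apoa4 were chosen and are a description. Without WD male 11 the bound for WD sperm was 5.12-fold, without MD-LPD male 9 that for MD-LPD sperm was 33.7-fold, and without LPD male 15 that for LPD sperm was 5.71-fold.

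Apoa4, a chylomicron protein encoded beside Apoa1, followed the same libraries. It had 0, 0, 4.33, 2.52 and 0 normalised counts in MD-WD males, 13.3, 219, 0, 0 and 0 in WD males, 104, 8.20, 88.2, 0 and 0 in MD-LPD males, 6.58, 0, 0, 0 and 7.76 in LPD males, and 0 in all 5 CD males. Outside the MD-WD group, every library with an Apoa1 read also had an Apoa4 read and none had Apoa4 alone. The MD-WD group departed from this, with Apoa1 in all 5 libraries and Apoa4 in 2. Apoa4 averaged 1.37 ± 1.98 in MD-WD, 46.5 ± 96.8 in WD, 40.1 ± 51.7 in MD-LPD and 2.87 ± 3.95 in LPD sperm (SD, n = 5 each). These means were 2.38-fold, 80.8-fold, 69.7-fold and 4.98-fold higher than the CD floor, which again covers counting error in CD only. The MD-WD mean rested on 3 reads in male 12 and 3 in male 14. Without WD male 11 the bound for WD sperm was 5.76-fold, without MD-LPD male 9 that for MD-LPD sperm was 41.9-fold, without LPD male 15 that for LPD sperm was 2.86-fold and without MD-WD male 12 that for MD-WD sperm was 1.09-fold. Over the 25 libraries the rank correlation of Apoa1 with Apoa4 was 0.891, the highest of the 15 pairs among the 6 genes, and the lowest was 0.389 for Apoa1 with Apob. Without the 3 libraries of highest Apob the same pairs had 0.822 and 0.0691, and the lowest of the 15 was then 0.000594 for Apoa2 with Apoc3. These libraries share their depth and scaling, and the values are a description.

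Apoc3, the lipase inhibitor transcribed from the opposite strand between Apoa1 and Apoa4, was also listed at 0 in all 5 CD libraries. It had 0, 2.28, 0, 0 and 0 normalised counts in MD-WD males, 0, 39.1, 0, 0 and 0 in WD males, 57.6, 0, 18.2, 0 and 0 in MD-LPD males, and 5.26, 0, 0, 0 and 0 in LPD males. With a mean of 4.90 over all libraries it was the only one of the 6 below the minimum mean of 5 set for testing. Apoc3 averaged 0.455 ± 1.02 in MD-WD, 7.82 ± 17.5 in WD, 15.2 ± 25 in MD-LPD and 1.05 ± 2.35 in LPD sperm (SD, n = 5 each). Against the same floor its mean was 13.6-fold higher in WD sperm, 26.3-fold higher in MD-LPD sperm and 1.83-fold higher in LPD sperm. The LPD value rested on 4 reads in male 10, and the MD-WD mean was under the floor. Without MD-LPD male 9 the bound for MD-LPD sperm was 7.89-fold, and without WD male 11 or LPD male 10 no Apoc3 read remained in those groups.

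Apoa2, the other main high density lipoprotein protein, and Apoa5, the activator of triglyceride clearance, were not absent from CD sperm. Apoa2 had 10.1, 0, 13, 0 and 5.00 normalised counts in MD-WD males and 0, 137, 0, 0 and 0 in WD males. It had 131, 10.5, 72.0, 9.55 and 0 in MD-LPD males, 9.21, 6.01, 7.35, 0 and 12.2 in LPD males, and 0, 0, 4.26, 3.65 and 7.04 in CD males. Apoa2 thus had reads in 1 of 5 WD libraries and in 4 of 5 LPD libraries, although its mean was 27.5 ± 61.5 in WD and 6.95 ± 4.53 in LPD sperm (SD, n = 5 each). In the other groups it averaged 5.62 ± 5.88 in MD-WD, 44.6 ± 56.0 in MD-LPD and 2.99 ± 3.01 in CD sperm (SD, n = 5 each). Apoa5 had 5.62, 3.79, 4.33, 0 and 0 normalised counts in MD-WD males, 0, 105, 0, 0 and 2.01 in WD males, 74.7, 8.20, 16.8, 0 and 3.61 in MD-LPD males, 9.21, 6.01, 4.01, 0 and 0 in LPD males, and 0, 9.53, 0, 0 and 2.64 in CD males. Apoa5 averaged 2.75 ± 2.60 in MD-WD, 21.5 ± 47.0 in WD, 20.7 ± 30.9 in MD-LPD, 3.85 ± 3.97 in LPD and 2.43 ± 4.13 in CD sperm (SD, n = 5 each). Both genes had ranges that overlapped between all 5 groups.

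**Figure D1:**
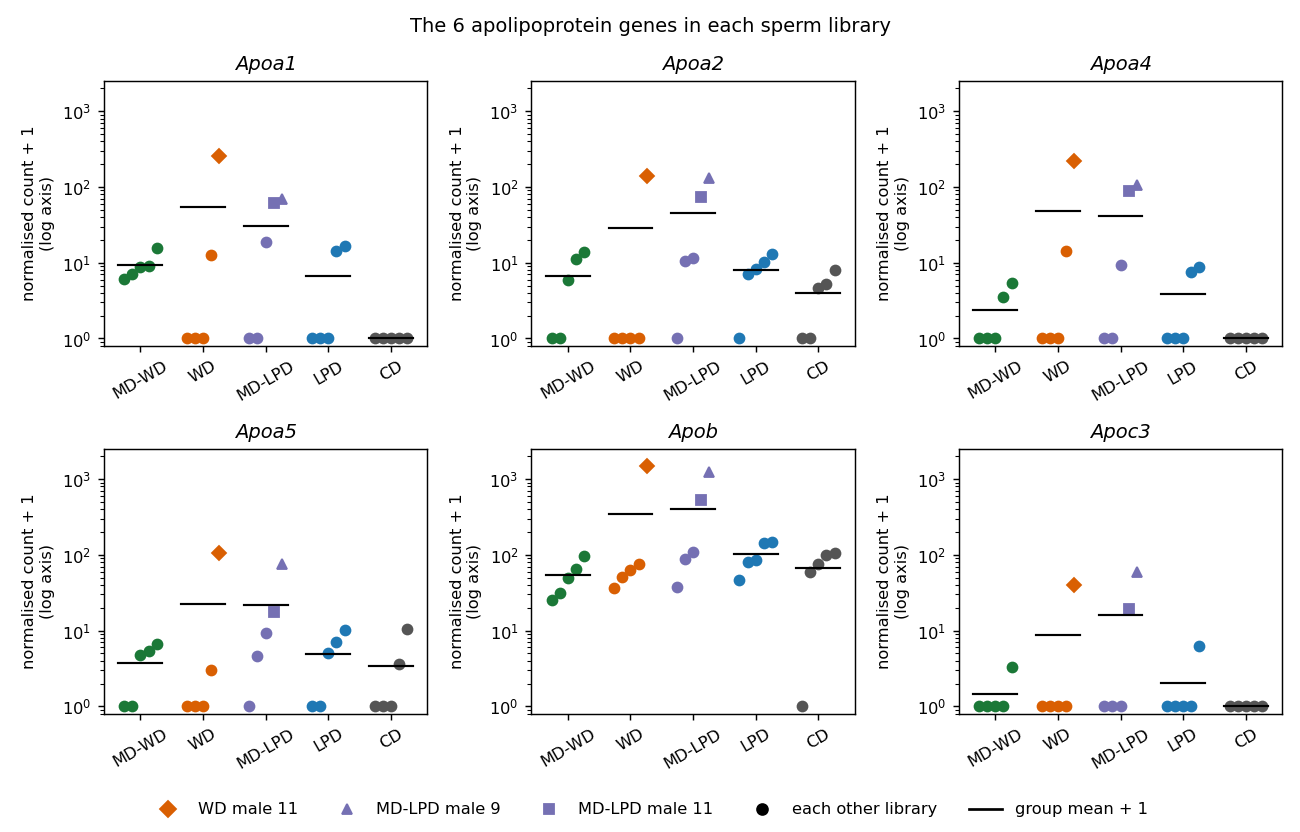
Normalised count plus 1 (log axis) of each of the 6 apolipoprotein genes in 25 sperm libraries by diet; points are males, horizontal lines are group means, and WD male 11, MD-LPD male 9 and MD-LPD male 11 have their own symbols. These 3 libraries hold the 3 highest values of every gene, and all 5 CD points of Apoa1, Apoa4 and Apoc3 lie at 0.

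Few reads stand behind most of these values. Of the 150 values of 6 genes in 25 libraries, 79 were above 0, the lowest of them was 3 reads, and 38 were under 12 reads. All 6 genes had reads in 4 libraries (WD male 11, MD-LPD males 9 and 11, and LPD male 10), and CD male 10, the library with the fewest reads and the fewest detected genes, had none for any of the 6. WD male 11 had 1894 reads over the 6 genes, MD-LPD male 11 had 1167 and MD-LPD male 9 had 1070, while no other library had more than 165. At equal library totals the 3 libraries still had between 1047 and 1656 summed counts, against at most 196 elsewhere.

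Per kilobase of exon, which allows genes to be compared, the order of the 6 differed between these libraries and the rest. In WD male 11 the normalised count per kb was 151 for Apoa1, 121 for Apoa4, 107 for Apob, 38.2 for Apoa5, 31.6 for Apoa2 and 12.4 for Apoc3. In MD-LPD male 9 it was 88.3 for Apob, 57.5 for Apoa4, 40.1 for Apoa1, 30.1 for Apoa2, 27.1 for Apoa5 and 18.2 for Apoc3. In MD-LPD male 11 it was 48.6 for Apoa4, 38.1 for Apob, 35.1 for Apoa1, 16.6 for Apoa2, 6.09 for Apoa5 and 5.75 for Apoc3. Over the other 22 libraries Apob came first with a mean of 5.06 per kb, Apoa1 followed at 2.65, and the remaining 4 were between 0.108 and 1.07. The exon lengths include alternative exons: per kb of coding sequence the mean of Apoa2 over all 25 libraries was 53.1, the highest of the 6, against 4.03 per kb of all exons.

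Albumin, the most abundant liver transcript, was highest in the same 3 libraries, so each apolipoprotein was set against it within a library. There were 76.1 Apob reads per 100 Alb reads in WD male 11 (95% exact binomial interval 70.7 to 82.0), 24.1 in MD-LPD male 9 (22.3 to 26.0) and 69.8 in MD-LPD male 11 (63.6 to 76.5). Apoa1 had 13.2 reads per 100 Alb reads in WD male 11 (11.4 to 15.3), 1.34 in MD-LPD male 9 (0.972 to 1.80) and 7.88 in MD-LPD male 11 (6.28 to 9.79). All 6 genes were lowest against Alb in MD-LPD male 9, whose Alb count was the highest of all, and these intervals did not overlap those of the other 2 libraries for Apoa1, Apoa2, Apoa4 and Apob. The intervals cover counting error only and take the quantified counts as tallied reads. In the 22 other libraries Apob ranged from 0 to 605 reads per 100 Alb reads, on 10 to 239 Alb reads.

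**Figure D2:**
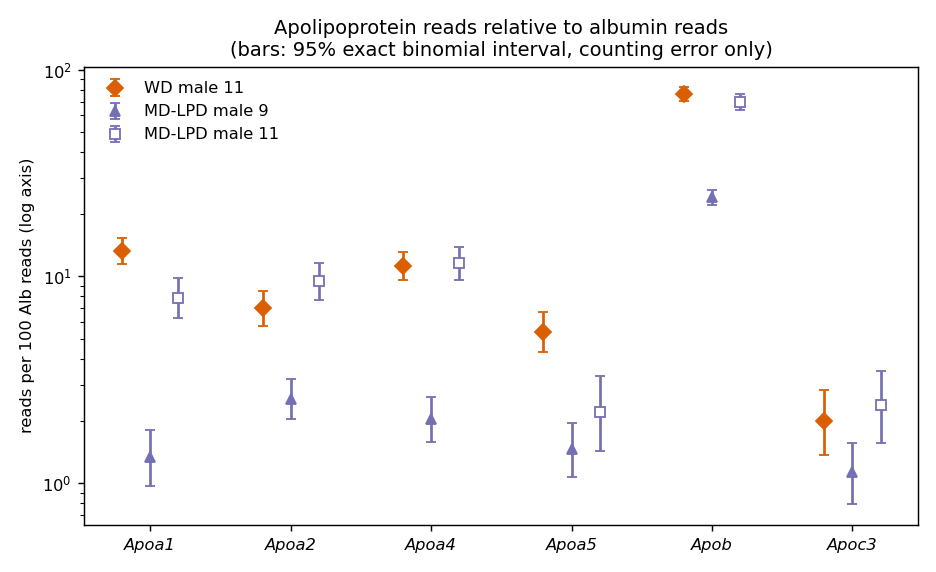
Reads of each apolipoprotein gene per 100 Alb reads (log axis) in WD male 11, MD-LPD male 9 and MD-LPD male 11, with 95% exact binomial intervals for counting error. Apob stands at 76.1, 24.1 and 69.8 reads per 100 Alb reads in these libraries, and each gene is lowest in MD-LPD male 9.

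Since the choice of genes used the contrasts with CD, the 6 genes were tested only in comparisons that leave CD out: MD-WD against WD, MD-LPD against LPD, and WD against LPD. The spread in the models was still estimated from all 5 groups, with the CD libraries among them. The exact permutation tests below used the compared groups only. The first pair asks what methyl donors added to the Western diet, the second what they added to the low-protein diet, and the third how the unsupplemented diets differ. None of the 6 genes passed after adjustment, or in an exact permutation test, in any of them. By limma over all 28311 genes tested, 0 of the 5 genes above the minimum mean passed an adjusted p of 0.05 in each comparison, where the share called over all genes was 0.0%, and at an unadjusted p under 0.05 the count was again 0 of 5, where 5.55% of all genes passed in MD-WD against WD, 1.59% in MD-LPD against LPD and 5.86% in WD against LPD. By edgeR 0 of them passed after adjustment, and 2, 0 and 1 passed unadjusted in MD-WD against WD, MD-LPD against LPD and WD against LPD, where edgeR passed 5.67%, 1.78% and 4.26% of all genes. DESeq2 also passed 0 after adjustment, and 1, 1 and 0 unadjusted, where 5.33%, 1.75% and 3.97% of all genes passed. Unadjusted edgeR passed Apoa4 and Apob in MD-WD against WD and Apoa4 in WD against LPD. The gene passed by unadjusted DESeq2 was Apob each time. Apoa1, Apoa2, Apoa4 and Apoa5 reached the minimum mean only through WD male 11 and MD-LPD males 9 and 11, libraries of the compared groups. The unadjusted counts beside these shares, those of Apob included, are a description only. Over all genes limma and edgeR called 0 in each comparison after adjustment, and DESeq2 called 12, 16 and 13 (0.0356%, 0.0503% and 0.0386%).

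In MD-WD against WD sperm the log2 difference was -1.15 for Apob (SE 1.13, limma adjusted p = 0.999), -1.48 for Apoa4 (SE 1.41, limma adjusted p = 0.999) and 0.80 for Apoa1 (SE 1.39, limma adjusted p = 0.999). The sign for Apoa1 depended on the scale: its mean was 8.28 in MD-WD and 54.0 in WD sperm, and the difference was -2.80 by edgeR, -2.71 by DESeq2 and -0.12 with a pseudocount of 5. Apoa2 (0.55 in the same comparison) likewise turned to -2.42 by edgeR, -2.30 by DESeq2 and -0.078 with a pseudocount of 5. The limma log2 differences are on the scale of normalised count plus 1 unless another pseudocount is named, which understates changes of low genes. Those of edgeR and DESeq2 come from models of the read counts and are on another scale. In MD-LPD against LPD sperm all 5 differences were positive, from 1.02 for Apob (SE 1.13) to 2.07 for Apoa4 (SE 1.41), each with a limma adjusted p of 1.0. In WD against LPD sperm they ran from -1.17 for Apoa2 to 1.11 for Apoa4, with limma adjusted p-values of 0.789 to 0.996. The Apoa2 sign turned there too, to 2.0 by edgeR and 1.98 by DESeq2. Two-sided exact permutation tests of the 6 genes in the 3 comparisons, 18 tests whose smallest possible p is 0.00794, gave p-values of 0.341 to 1.0 in MD-WD against WD, 0.206 to 0.444 in MD-LPD against LPD and 0.563 to 1.0 in WD against LPD. The intervals are wide: for Apob the 95% interval was -3.48 to 1.18 in MD-WD against WD and -1.31 to 3.35 in MD-LPD against LPD.

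The differences turned on the same 3 libraries. Without WD male 11 and MD-LPD males 9 and 11, a choice made after seeing the data, the MD-LPD against LPD differences were -0.17 for Apoa1, -0.28 for Apoa2, -0.14 for Apoa4, 0.11 for Apoa5 and -0.39 for Apob. In MD-WD against WD sperm Apoa1 then stood at 2.22, Apoa2 at 1.97, Apoa4 at -0.11, Apoa5 at 1.08 and Apob at -0.20. In WD against LPD sperm the values were -0.65 for Apoa1, -2.59 for Apoa2, -0.25 for Apoa4, -1.30 for Apoa5 and -0.77 for Apob. None of these passed the threshold. Whether the effect of the methyl donors differed between the base diets was tested as an interaction, (MD-LPD minus LPD) minus (MD-WD minus WD). It was positive for all 5 genes, from 0.88 for Apoa1 to 3.55 for Apoa4 (SE 1.97 and 1.99), and 0 of 5 passed by limma (adjusted p = 1.0 for each, 0 of 5 unadjusted, where 0.0% of all genes passed after adjustment and 1.07% unadjusted). By edgeR 0 passed after adjustment and 5 of 5 unadjusted, where 1.28% of all genes did, and by DESeq2 0 (0.0168% of all genes) and 4 (1.44%). Apoa1, Apoa2, Apoa4 and Apoa5 reached the minimum mean of 5 only through WD male 11 and MD-LPD males 9 and 11. Those libraries lie in the groups contrasted, so the unadjusted counts of these 4 genes give no support for an interaction. DESeq2 was run without that minimum, and its unadjusted counts are a description only. Apob had a median of 69.2 in the other 22 libraries, above the minimum. Its unadjusted interaction p was 0.00366 by edgeR and 0.000494 by DESeq2, and it passed by neither after adjustment. Without WD male 11 and MD-LPD males 9 and 11, a choice made after the data were seen, all 5 limma interactions had the opposite sign, at -2.39 for Apoa1, -2.25 for Apoa2, -0.03 for Apoa4, -0.98 for Apoa5 and -0.19 for Apob, each with a limma adjusted p of 1.0.

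**Figure D3:**
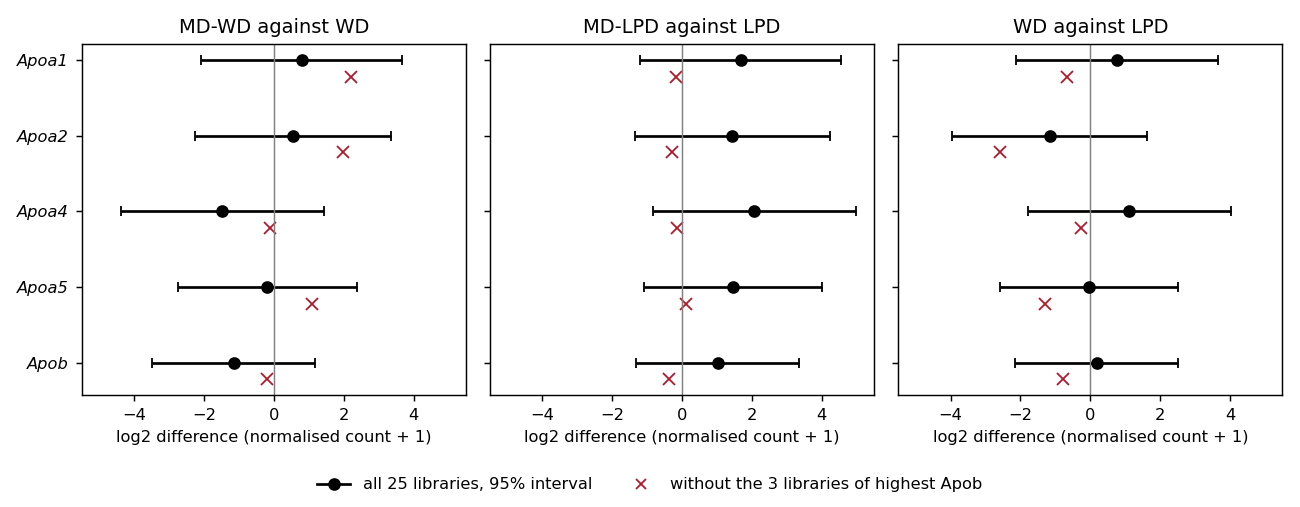
Log2 differences (normalised count plus 1) of 5 apolipoprotein genes in 3 comparisons; black points with 95% intervals use all 25 libraries and red crosses leave out WD male 11 and MD-LPD males 9 and 11. All intervals include 0, and the Apob value in MD-LPD against LPD moves to -0.39 without the 3 libraries, against 1.02 with all libraries.

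Normalised counts of 25 hepatocyte markers and 14 enterocyte markers were summed in the same libraries. Hepatocyte markers summed to 340 to 438 normalised counts in MD-WD, 239 to 5293 in WD, 402 to 9423 in MD-LPD, 404 to 1062 in LPD and 295 to 482 in CD libraries, and MD-LPD male 9 (9423), WD male 11 (5293) and MD-LPD male 11 (2154) were the 3 highest of 25. These libraries had reads for 21, 25 and 24 of the 25 markers. Ttr, the thyroxine carrier, Gc, the vitamin D carrier, and F2, prothrombin, were among 7 hepatocyte markers listed at 0 in all CD libraries, and 1, 0, 0 and 1 of the list were at 0 throughout MD-WD, WD, MD-LPD and LPD. Against CD, the median log2 difference of the hepatocyte markers was 0.80 in MD-WD, 1.39 in WD, 2.10 in MD-LPD and 0.86 in LPD sperm, beside medians over all genes of 0.11, 0.03, -0.01 and -0.04. With markers absent from CD set at their lower bound, these medians were 0.80 in MD-WD, 1.67 in WD, 2.15 in MD-LPD and 0.95 in LPD sperm. Without the 3 libraries the WD median was 0.26 and the MD-LPD median 0.53. By limma 0 of 25 markers passed in any comparison with CD, and 3 (1 of them lower), 4, 7 and 3 passed unadjusted in MD-WD, WD, MD-LPD and LPD, where 10.4%, 16.3%, 3.22% and 8.56% of all genes did. By edgeR 0 passed, with 4, 15, 18 and 3 unadjusted, where 10.3%, 19.1%, 3.69% and 9.9% of all genes did. Limma and edgeR passed 0 of all genes after adjustment in each comparison with CD. DESeq2 passed 3, 2, 5 and 2 after adjustment, where 0.181%, 0.522%, 0.0379% and 0.14% of all genes passed. Fgg and Gc were among them in every diet. The study had already named both as higher in all diets, beside Apoa1, Apoa4 and other genes. The list was made with earlier results known, so these counts beside the shares are no test of hepatocyte markers. The part of hepatocyte RNA in the apolipoprotein values was not tested.

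**Figure D4:**
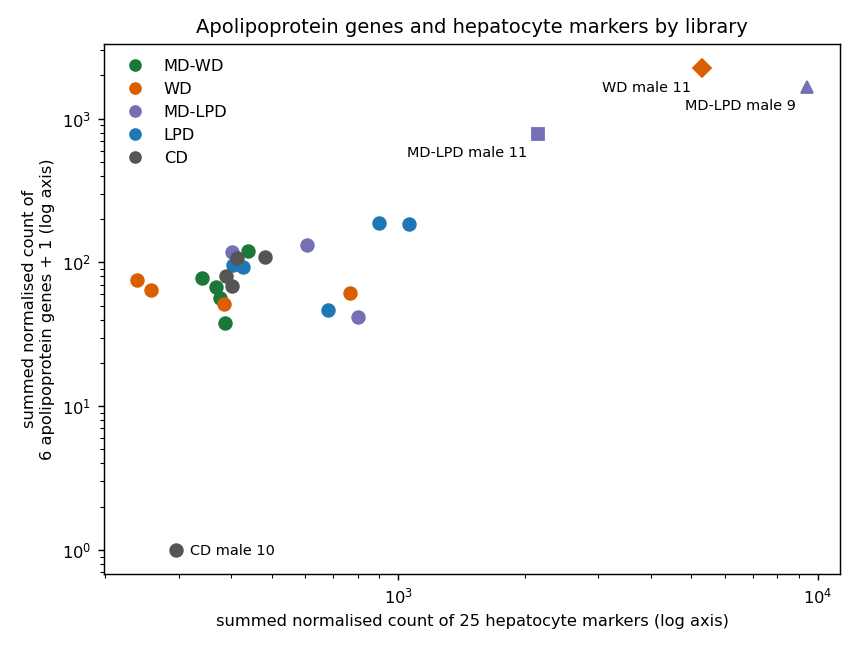
Summed normalised count plus 1 of the 6 apolipoprotein genes against the summed normalised count of 25 hepatocyte markers (both log axes), 1 point per library coloured by diet. WD male 11, MD-LPD male 9 and MD-LPD male 11 lie apart at the upper right, and CD male 10 has no apolipoprotein read with 295 marker counts.

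The summed enterocyte markers were not highest in these libraries. Enterocyte markers summed to 651 to 890 normalised counts in MD-WD, 727 to 1083 in WD, 703 to 1025 in MD-LPD, 757 to 1475 in LPD and 632 to 1050 in CD libraries, and WD male 11, MD-LPD male 9 and MD-LPD male 11 ranked 22, 5 and 15 of 25. Of the 14 enterocyte markers in the table, these libraries had reads for 10, 5 and 9 in the same order. The other 22 libraries had reads for 4 to 10. Sis, a disaccharidase of the brush border, and Rbp2, an intestinal retinol carrier, both named after their values were seen, were at 0 in all 3 libraries. Fabp2, the intestinal fatty acid binding protein, reached at most 4.04 normalised counts there and 8.87 elsewhere. Most of the enterocyte sum came from Anpep, Lgals4 and Mep1a, peptidases and a lectin that other epithelia also make. By limma 0 of 7 tested enterocyte markers passed in any comparison, also unadjusted, where 0.0% of all genes passed adjusted and 1.07% to 16.3% unadjusted. By edgeR 0 passed after adjustment, where 0 of all genes did. Unadjusted, edgeR passed 1 of 7 in LPD against CD, where 9.9% of all genes passed. DESeq2 passed 0 after adjustment, where 0.0168% to 0.522% of all genes passed.

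How far each gene was concentrated in WD male 11, MD-LPD male 9 and MD-LPD male 11 differed between the 6 and most genes of their pathway. These libraries, 12% of the 25, held 67.7% of all Apob counts, 77.0% of Apoa5, 77.7% of Apoa2, 79.5% of Apoa1, 90.6% of Apoa4 and 93.8% of Apoc3. The median share was 74.4% for hepatocyte markers, 9.94% for the 8 enterocyte markers with a mean of at least 2, and 12% over all genes tested. Only 43 of the 28311 tested genes (0.152%) exceeded 60%. The 3 libraries were picked by their Apob level, so these shares describe the libraries and carry no test.

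**Figure D5:**
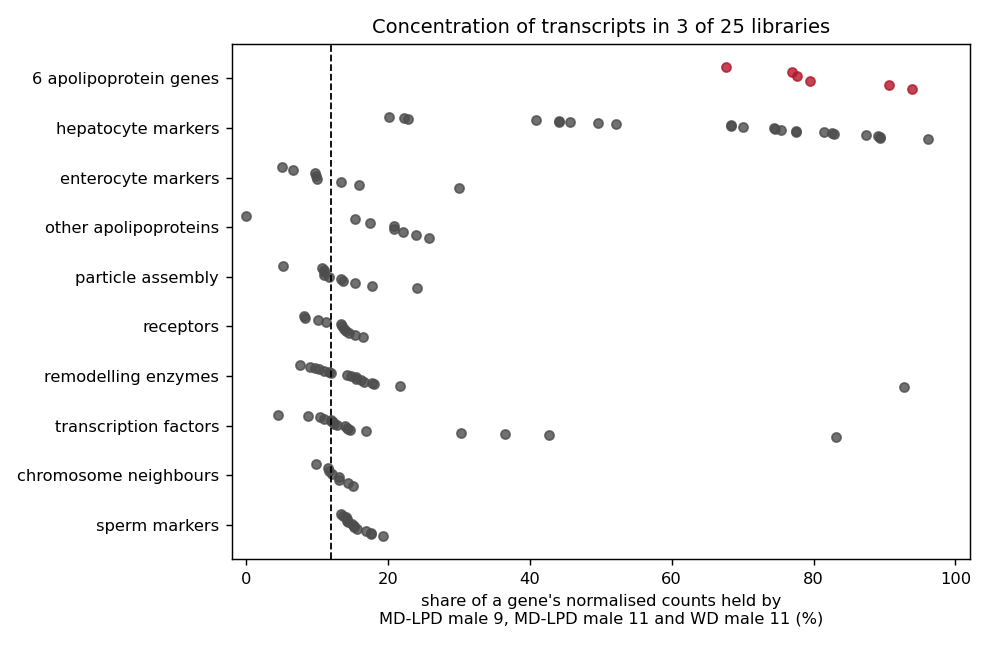
Share of each gene's normalised counts held by WD male 11, MD-LPD male 9 and MD-LPD male 11, in percent, for genes with a mean of at least 2; rows are gene groups, each point is a gene and the dashed line at 12% is an equal share. The 6 apolipoprotein genes lie between 67.7% and 93.8%, and Pon1 and Hnf4a are the lone points above 60% outside them and the hepatocyte markers.

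Most other genes of lipoprotein metabolism had reads in every diet group. Among 9 further apolipoproteins, of which 7 were tested, Apod and Apoe had the highest counts, with group means between 9667 and 18351 and between 6302 and 14493 normalised counts, followed by Apoh with 57.8 to 158 and Apoc1 with 34.3 to 75.2. Apoe, which carries lipid to receptors and is made in many tissues, had 4925 or more normalised counts in every library, and WD male 11 and MD-LPD males 9 and 11 held 15.3% of them. Apoc2, the lipase cofactor, was like Apoa1 at 0 in every CD library, but its highest values were in other libraries. Named after its values were seen, it had 195 normalised counts in LPD male 15, 63.0 in MD-WD male 16, 56.9 in WD male 11 and 29.6 in MD-LPD male 11, and 0 in MD-LPD male 9. The median log2 difference of the 7 against CD was 0.88 in MD-WD, 0.91 in WD, 0.85 in MD-LPD and 0.75 in LPD sperm, and at equal library totals 0.61, 0.38, 0.74 and 0.69. With Apoc2 set at its lower bound the deposited-scale medians were again 0.88, 0.91, 0.85 and 0.75.

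Genes for building the particles were detected in every diet group. Mttp, the triglyceride transfer protein that loads Apob, averaged 948 ± 469 normalised counts in MD-WD, 1185 ± 212 in WD, 873 ± 257 in MD-LPD, 940 ± 260 in LPD and 957 ± 249 in CD sperm (SD, n = 5 each). It had 1447 in WD male 11 and 780 and 629 in MD-LPD males 9 and 11, inside the range of 392 to 1553 in the other 22 libraries. P4hb, its partner subunit, Surf4, the cargo receptor for lipoprotein export, and Dgat2, which makes triglyceride, had group means of 7003 to 11091, 4061 to 5284 and 736 to 1098. Apobec1, the enzyme that edits Apob to the short intestinal form, averaged 324 to 535, and its cofactor A1cf 7.66 to 31.7, both named after their values were seen. The 3-library share of the 11 assembly genes with a mean of at least 2 was 5.26% to 24.0%.

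Receptors and remodelling enzymes also had reads in every diet group. Lrp2, the large endocytic receptor that also binds Apob, Sort1, a sorting receptor, Lrp1, a remnant receptor, and Lsr had group means of 15171 to 25569, 11864 to 17975, 7574 to 13761 and 399 to 712 normalised counts. Abca1, which loads lipid onto Apoa1, Lipg, a lipase of high density lipoprotein, Pltp, the phospholipid transfer protein, and Abcg1 had group means of 6829 to 11926, 3334 to 5136, 2641 to 4817 and 975 to 2712. Pon1, an enzyme that is carried on high density lipoprotein and made by the liver, was the exception, named after its values were seen. It had a read in 5 of 25 libraries, with 92.8% of its counts in WD male 11 and MD-LPD males 9 and 11, and was at 0 in all CD and MD-WD libraries.

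Among transcription factors that act on apolipoprotein genes, Nr2f2 had group means of 2094 to 3261 normalised counts, Rxra 1680 to 2068 and Rora 705 to 973. In WD male 11 and MD-LPD males 9 and 11, Nr2f2 and Rora stayed within the range of the other 22 libraries, and Rxra ran from 1129 to 2984, against 1216 to 2816 elsewhere. Hnf4a, named after its values were seen, had a mean of 3.85 over all libraries, under the minimum for testing. It had 52.2 normalised counts in WD male 11, 12.5 in MD-LPD male 9 and 15.5 in MD-LPD male 11, at most 5.06 in any other library and 0 in 18 of 25, which put 83.1% of its counts in the libraries highest in Apob.

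Genes beside the chromosome 9 cluster were close to an equal share in the 3 libraries. Zpr1, next to Apoa5 and named after its values were seen, averaged 1360 ± 237 normalised counts in MD-WD, 1378 ± 92.3 in WD, 1293 ± 169 in MD-LPD, 1201 ± 179 in LPD and 1284 ± 235 in CD sperm (SD, n = 5 each). The 4 neighbours of highest mean were Sidt2, Pafah1b2, Sik3 and Rnf214, and the 3-library share of all 8 neighbours was 9.87% to 15.0%.

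Of these 6 lists together, 67 of 78 genes were tested, and 0 passed an adjusted p of 0.05 by limma, edgeR or DESeq2 in any comparison. Over all genes limma and edgeR called 0.0% in each comparison, and DESeq2 called 0.0168% to 0.522%. A count of 0 in the lists is near those shares. Against CD, unadjusted limma counts were 6 higher and 2 lower in MD-WD, 6 and 2 in WD, 2 and 1 in MD-LPD and 8 and 3 in LPD sperm, or 11.9%, 11.9%, 4.48% and 16.4% of the 67, where the shares of all genes were 10.4%, 16.3%, 3.22% and 8.56%. In MD-WD against WD the counts were 3 and 2, in MD-LPD against LPD 0 and 0, and in WD against LPD 0 and 1. These were 7.46%, 0.0% and 1.49% of the 67, where 5.55%, 1.59% and 5.86% of all genes passed. Unadjusted edgeR counts were 6, 12, 2 and 12 of the 67 against CD, beside 10.3%, 19.1%, 3.69% and 9.9% of all genes, and 5, 1 and 1 in the comparisons without CD, beside 5.67%, 1.78% and 4.26%. These comparisons share their CD libraries. The median log2 difference of all genes depended on scaling, and in WD against CD it was 0.03 as deposited and -0.49 at equal library totals.

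The genes whose pattern over the 25 libraries was most like the summed count of the 6, by rank correlation among 28042 named genes, were Fgb (0.74), Pzp (0.72), Mup20 (0.68), Itih4 (0.67), Lrmda (0.67), Mrgprb2 (0.67), Mup10 (0.67), Hrg (0.67), Fgf16 (0.66) and Gm36026 (0.65). Fgb encodes a chain of fibrinogen, Pzp a plasma protease inhibitor, Itih4 and Hrg plasma proteins and Mup20 and Mup10 major urinary proteins, all made by mouse liver. The Mup genes are near-identical copies, so their counts are uncertain. With group means subtracted on the log2 scale, Pearson's r of these 10 was 0.54 to 0.75. Outside WD male 11 and MD-LPD males 9 and 11 the rank correlation was 0.79 for Mrgprb2, 0.74 for Lrmda and 0.66 for Gm36026. It was 0.62 for Fgb, 0.59 for Pzp, 0.57 for Fgf16 and 0.45 to 0.52 for Itih4, Mup10, Hrg and Mup20. WD male 11 and MD-LPD males 9 and 11 held 12.9% to 15.1% of the counts of Lrmda, Mrgprb2 and Gm36026. An equal share is 12%. They held 36.3% of the Fgf16 counts and 47.7% or more of the counts of each liver gene listed. All points share depth and scaling, the genes were ranked on the same libraries, and no test was made.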

How the data were processed

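Total RNA of sperm from 25 males was sequenced as paired-end stranded libraries after depletion of ribosomal RNA. Per the submitters' processing notes and the study's methods, the authors used Trim Galore 0.6.7 for trimming, HISAT2 2.2.1 for alignment (GRCm39), StringTie 2.2.1 for assembly and quantification per gene and DESeq2 for normalisation (version not given in the sources used here). The deposited signal values are gene counts divided by DESeq2 size factors, and whole counts were recovered for 100% of values (within 0.01 of a whole number). These quantified counts are called reads here. Of 47575 gene rows, 47034 were named from the GENCODE vM39 annotation and 541 were not. All library pairs differed beyond sampling noise (lowest chi-square per degree of freedom 16.2 over 300 pairs).

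limma 3.58.1 (R 4.3.3, trended and robust empirical Bayes) was fitted to log2(normalised count + 1) of 28311 genes with a mean of at least 5, with all 5 groups in a single model and Benjamini-Hochberg adjustment at 0.05. edgeR 4.0.16 (quasi-likelihood) and DESeq2 1.42.0 were run on the recovered reads as alternatives, and the limma fit was tested on simulated data. Exact permutation tests, intervals and figures used Python 3.11.15, scipy 1.17.1 and matplotlib 3.10.9. The 6 genes and all lists were chosen with earlier results of these data known. Named genes were the 6, the 4 of highest mean in each list, any past the threshold, and the 10 most alike by rank correlation. A result that this rule would name is not reported here. Further marker genes were named after their values were seen, as were others where stated. The p-values measure the spread between single males. Alternatives covered the pseudocount, the filter, scaling, the tool, the block, the diet entries and each library left out.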

Additional observations from a re-analysis of the deposited data

Results flagged for a closer look

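Within groups of 5 libraries, a value was singled out where its gap to the nearest other library exceeded 0.71 of the group's range (Dixon's criterion). This was so for 10 of the 27 gene and group sets whose values were not all equal, 6 of them through WD male 11. Chance gives about 1 in 20 groups for normally distributed values, which does not apply to counts with many zeros, where 1 library with a few reads beside zeros always exceeds the criterion.

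WD male 11 stood apart from the other WD libraries in all 6 genes. It had 258 normalised counts of Apoa1 (next highest 11.8), 137 of Apoa2 (next 0), 219 of Apoa4 (next 13.3), 1485 of Apob (next 73.9) and 39.1 of Apoc3 (next 0), and also 105 of Apoa5 (next 2.01). MD-LPD male 9 stood apart in Apoa5, the activator of triglyceride clearance, with 74.7 (next 16.8). In the remaining cases the values were low: Apoa5 had 9.53 in CD male 11 (next 2.64), and Apoc3 had 5.26 in LPD male 10 and 2.28 in MD-WD male 10, where the other libraries of the group had 0.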

How the results depend on the processing

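None of the 348 alternative log2 differences of the 6 genes passed the threshold (lowest adjusted p = 0.378, limma, edgeR or DESeq2), and 35 had the opposite sign. Without WD male 11 the WD mean of Apoa1 was 2.94, against 54.0 with all 5 libraries, and that of Apob 55.4, against 341. Without WD male 11 and MD-LPD males 9 and 11 (added after seeing the data), the signs turned in MD-LPD against LPD for Apoa1 (-0.17), Apoa2 (-0.28), Apoa4 (-0.14) and Apob (-0.39), in MD-WD against WD for Apoa5 (1.08), and in WD against LPD for Apoa1 (-0.65), Apoa4 (-0.25) and Apob (-0.77). Leaving out single libraries gave ranges of -0.60 to 1.08 for Apoa5 in MD-WD against WD, and in WD against LPD of -0.65 to 1.38 for Apoa1, -0.25 to 1.69 for Apoa4, -1.30 to 0.38 for Apoa5 and -0.77 to 0.57 for Apob. With a pseudocount of 5, MD-WD against WD gave -0.12 for Apoa1 and -0.078 for Apoa2, and WD against LPD gave 0.29 for Apoa5. In MD-WD against WD, Apoa1 and Apoa2 were -2.80 and -2.42 by edgeR and -2.71 and -2.30 by DESeq2, and in WD against LPD, Apoa2 and Apoa5 were 2.0 and 2.47 by edgeR and 1.98 and 2.48 by DESeq2. At equal totals Apob was -0.0854 in WD against LPD. The cause of these turns was not tested. Males with the same number correlated at a mean r of 0.035 (33 pairs, -0.42 to 0.57) and those with different numbers at 0.001 (217 pairs). Such averages cannot decide whether males with the same number, as WD male 11 and MD-LPD male 11, shared a batch or preparation. With the replicate block 0 genes were called in every comparison and Apoa2 in MD-WD against WD became -0.40 and Apoa5 in WD against LPD 0.17.

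Over all genes, where limma called 0, DESeq2 called 56 for MD-WD, 123 for WD, 18 for MD-LPD and 42 for LPD sperm, each against CD, 16 in MD-LPD against LPD, 12 in MD-WD against WD, 13 in WD against LPD and 8 in the interaction. Without a filter limma called 1 in MD-WD against CD and 1 in MD-WD against WD, and with the compared groups alone 1 in MD-WD against CD and 1 in MD-LPD against LPD. Leaving out single libraries gave 0 to 1 in LPD, MD-LPD and WD against CD (1 without CD male 12) and 0 to 1 in the interaction (1 without MD-LPD male 9 or WD male 10). Most values of the 6 genes rest on few reads, which limits every difference here.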
